A study of Homo sapiens with 24 samples.

Results

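The classical histone deacetylases, HDAC1 to HDAC10, were followed in HT29 cells, an established line of human colon adenocarcinoma, after 6 h of treatment. Members were chosen by symbol alone: every probe that is not a control and carries 1 of the 10 names. They make up 10 of the 36337 gene names on the array and 17 of its 50599 probes, and 9 of them entered the tests, among 20700 genes tested. HDAC9 did not, because neither of its probes was well above background on all 4 arrays of any group.

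HDACs take acetyl groups off lysines of histones and of other proteins, which as a rule tightens chromatin, and histone acetyltransferases put them on. Class I enzymes (HDAC1, HDAC2, HDAC3 and HDAC8) are mostly nuclear and work inside repressor complexes. Class IIa enzymes (HDAC4, HDAC5, HDAC7 and HDAC9) have little catalytic activity of their own, bind transcription factors of the MEF2 family and move between nucleus and cytoplasm when they are phosphorylated, whereas class IIb holds HDAC6, which acts on tubulin in the cytoplasm, and HDAC10, which acts on acetylated polyamines. Short chain fatty acids, products of gut bacteria, are known to inhibit histone deacetylase activity in colon cells. Which members they inhibit was not measured here.

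Each of the 6 groups had 4 arrays, 24 in all. Untreated cells (NT) were set against C3/C2 (30 mM propionate with 15 mM acetate), SN (culture supernatant of the dairy bacterium Propionibacterium freudenreichii, diluted to 1/2), TRAIL (100 ng/ml of the death receptor ligand, crosslinked by 2 µg/ml of anti-Flag M2 antibody), TRAIL+C3/C2 and TRAIL+SN. All groups are cultures of 1 cell line. The authors ran 2 independent experiments, each in duplicate, so the 4 arrays of a group are not 4 independent experiments. Replicates carry the numbers 1 to 4, and the labels do not say which of them were duplicates of the same experiment. The p-values therefore measure the spread between these arrays, part of which may be technical. The comparisons ask whether each treatment moved a member away from NT, whether SN differed from the acids it contains, and whether a co-treatment departed from the sum of its single treatments.

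Levels are log2 intensities relative to the 75th percentile of the same array, so that 0 is the 75th percentile. That percentile itself moved with the treatments, from a median intensity of 883 in NT to 503 in TRAIL+C3/C2 and 520 in TRAIL+SN. The reason for this move was not tested, and results under other scalings are given below. C3/C2 was compared with NT within slides, while SN and TRAIL shared 1 slide and both co-treatments another, so that slide and treatment cannot be told apart in their comparisons with NT. All 8 epithelial markers, among them EPCAM, CDH1 and VIL1, were well above background on all 24 arrays, and 0 of 5 fibroblast markers were so on any NT array. Of the markers of other cells, PTPRC and CD14 of 4 immune markers and all 3 endothelial markers were well above background on all 24 arrays as well. As all groups are cultures of 1 line, a probe well above background does not by itself mark a cell type here. In bulk RNA, fewer cells that express a gene and less of its RNA per cell cannot be told apart.

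Because a value rests on what its probe sees, 3 probes are shown first, as deposited, 5′ to 3′ in lower case. Each was designed across a splice junction and stands for a case below: HDAC10 has this single probe, and the 2 HDAC8 probes gave opposite differences in C3/C2. The HDAC10 probe covers chr22:50685388-50686172 of hg19, the HDAC8 probe with the highest level covers chrX:71787823-71788605, and a further HDAC8 probe spans chrX:71571676-71681900, all on the minus strand. The footprint of that further HDAC8 probe, introns included, is 110225 bases long.
HDAC10: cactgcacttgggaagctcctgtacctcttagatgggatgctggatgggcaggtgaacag
HDAC8, highest probe: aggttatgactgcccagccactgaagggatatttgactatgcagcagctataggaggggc
HDAC8, further probe: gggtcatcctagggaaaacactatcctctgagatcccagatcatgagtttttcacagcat

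HDAC3, HDAC5 and HDAC10, 1 member of each class, rose in all 4 treatments with acids or supernatant, although HDAC5 was at 0.00 in C3/C2 when arrays were scaled by their median and at −0.21 in TRAIL+C3/C2 under the spike-in scaling. HDAC7 fell in all 4. The rises reached 3.76-fold for HDAC10 with TRAIL+SN, and the falls 2.10-fold for HDAC7 with C3/C2. Under spike-in scaling these places changed, with HDAC10 highest in SN (1.64 on the log2 scale) and HDAC7 lowest in TRAIL+C3/C2 (−1.58). The other 5 members tested differed from NT by at most 1.28-fold under the 75th percentile scaling on the probe with the highest level, which stands for the gene unless another is named. With TRAIL alone, HDAC10 was the only member past the threshold under the 75th percentile scaling, at 1.24-fold. Adjusted p-values are from limma, by Benjamini-Hochberg over all genes tested, and a member is called at an adjusted p under 0.05.

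Changes of these sizes were common over the whole array. In C3/C2, 3 of 9 members tested were higher, against 35.2% of all genes tested, and 4 were lower, against 27.7%. In SN, 5 were higher (35.1% of all genes) and 2 lower (34.2%). In TRAIL, limma called 1 higher (20.3%) and 0 lower (13.1%), and 0 were lower at an unadjusted p under 0.05 as well. In TRAIL+C3/C2, 3 members were higher (39.9%) and 2 lower (29.5%), and in TRAIL+SN 5 were higher (37.4%) and 1 lower (32.7%). At a change of 2-fold or more, 1 member was called in C3/C2 (19.6% of all genes), 2 in SN (24.0%), 0 in TRAIL (2.93%), 1 in TRAIL+C3/C2 (24.2%) and 3 in TRAIL+SN (26.2%). The median log2 difference of the 9 members was −0.10 in C3/C2, 0.21 in SN, −0.03 in TRAIL, 0.06 in TRAIL+C3/C2 and 0.16 in TRAIL+SN, beside 0.08, −0.02, 0.03, 0.10 and 0.04 over all genes tested. All 5 comparisons use the same 4 NT arrays.

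These counts depended on the scaling. When arrays were scaled by their median instead of the 75th percentile, 2 members were higher and 6 lower in C3/C2, 3 and 3 in SN, 4 and 0 in TRAIL, 2 and 6 in TRAIL+C3/C2, and 3 and 3 in TRAIL+SN. Over all genes, 4588 were then higher and 9167 lower in C3/C2. Under spike-in scaling, the numbers higher and lower were 0 and 3 in TRAIL, 2 and 6 in TRAIL+C3/C2, and 3 and 6 in TRAIL+SN. The 3 lower in TRAIL were HDAC2, HDAC3 and HDAC4, at −0.31, −0.39 and −0.36 on the log2 scale. HDAC3, HDAC10 and HDAC7 were on the same side, and called, in each of the 4 treatments with acids or supernatant under every scaling run, but their sizes moved, as given with each.

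**Figure D1:**
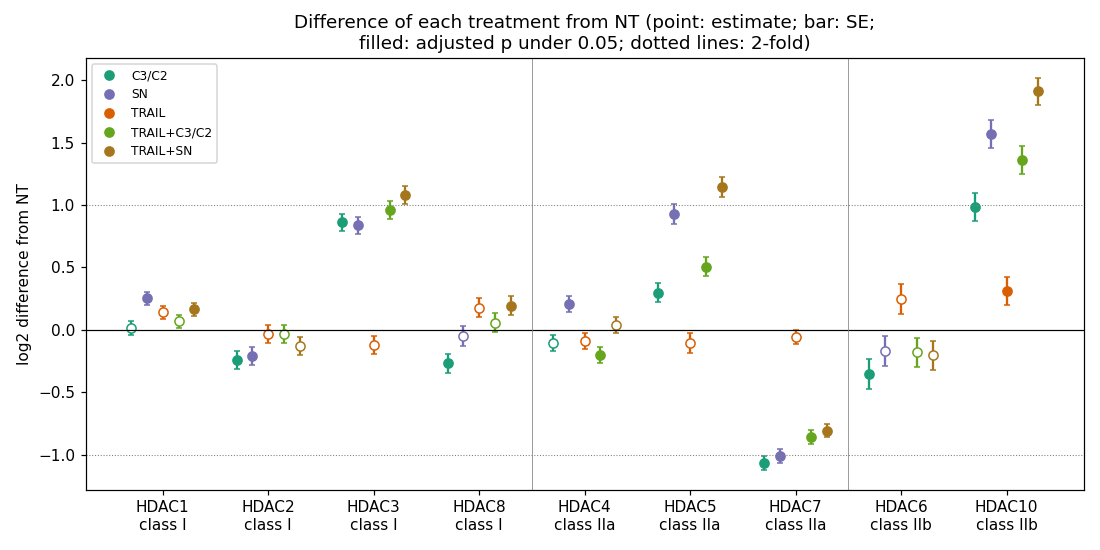
The y axis gives the log2 difference from NT of the 9 HDACs tested, ordered by class, with 1 colour per treatment. Points are estimates of the limma fit, bars their SE, filled points have an adjusted p under 0.05, and dotted lines mark a 2-fold change. HDAC3, HDAC5 and HDAC10 lie above 0 and HDAC7 below 0 in the 4 treatments that contain acids or supernatant under this scaling (HDAC5 was at 0.00 in C3/C2 by array median and −0.21 in TRAIL+C3/C2 by spike-in controls), and the TRAIL values lie between −0.12 and 0.31.

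Among class I enzymes, HDAC3 had the largest differences from NT in the 4 treatments with acids or supernatant under the 75th percentile scaling. Under spike-in scaling this did not hold in TRAIL+C3/C2 and TRAIL+SN, where HDAC2 was at −0.75 and −0.66, nor by array median in C3/C2, where HDAC8 was at −0.57 and HDAC3 at 0.56. HDAC3 is the catalytic subunit of the NCoR and SMRT corepressor complexes. Its single probe lies at chr5:141000459-141000518 (hg19). The NT arrays read 3.09, 3.14, 3.32 and 3.15, and the TRAIL arrays 3.02, 2.99, 3.15 and 3.03. In C3/C2 the level was 3.86, 4.02, 4.17 and 4.08, and in SN 3.97, 3.99, 4.07 and 4.01. TRAIL+C3/C2 gave 4.14, 4.02, 4.18 and 4.19, and TRAIL+SN 4.19, 4.20, 4.40 and 4.22. All 16 arrays with acids or supernatant were thus above all 8 arrays without them. The log2 difference from NT was 0.86 with C3/C2 (SE 0.07, adjusted p = 5.06e-10, 1.81-fold), 0.84 in SN (SE 0.07, adjusted p = 6.21e-10), 0.96 in TRAIL+C3/C2 and 1.08 in TRAIL+SN (adjusted p = 9.45e-12, 2.11-fold). Spike-in scaling lowered the rise to 0.25 in TRAIL+C3/C2 (adjusted p = 0.0418) and 0.55 in TRAIL+SN, and array median scaling lowered it to 0.56 in C3/C2 and 0.61 in TRAIL+C3/C2. With TRAIL alone it was −0.12 (adjusted p = 0.188), which passed with the replicate number as a block (adjusted p = 0.0385) and was −0.39 under spike-in scaling. Within slides, the C3/C2 difference of HDAC3 was 0.77 on slide 1, which held a single pair of arrays, and 0.89 on slide 2. C3/C2 and SN could not be separated for HDAC3, with a difference of −0.02 on the log2 scale and a 95% interval from −0.16 to 0.12.

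HDAC1 and HDAC2, the paired catalytic subunits of the SIN3, NuRD and CoREST complexes, differed from NT by at most 0.25 on the log2 scale under the 75th percentile scaling and by more under others. For HDAC1, whose probe is spotted 10 times on each array (chr1:32799037-32799096), the mean level was 5.27 ± 0.07 (SD, n = 4) in NT, 5.29 ± 0.11 in C3/C2, 5.52 ± 0.03 in SN, 5.41 ± 0.04 in TRAIL, 5.34 ± 0.06 in TRAIL+C3/C2 and 5.44 ± 0.05 in TRAIL+SN. Its rise was 0.25 on the log2 scale with SN (adjusted p = 0.000276) and 0.16 with TRAIL+SN (adjusted p = 0.00968). The 4 SN arrays, from 5.48 to 5.56, lay above the 4 NT arrays, from 5.19 to 5.36. With C3/C2 the difference was 0.01, with a 95% interval from −0.10 to 0.12. With TRAIL it was 0.14, just outside the threshold (adjusted p = 0.0508) and past it with the replicate block (adjusted p = 0.0101). Scaled by the array median, the HDAC1 difference was 0.12 with SN (adjusted p = 0.187) and −0.03 with TRAIL+SN, which under spike-in scaling was −0.36. By array median HDAC1 was also called lower in C3/C2, at −0.29 (adjusted p = 0.00401), and under spike-in scaling in TRAIL+C3/C2, at −0.65 (adjusted p = 1.36e-06).

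HDAC2 gave a result that depended on the probe. The probe with the highest level, spotted 10 times and designed across a splice junction (chr6:114262195-114262873), had a mean of 3.96 ± 0.12 (SD, n = 4) in NT, 3.72 ± 0.07 in C3/C2, 3.75 ± 0.07 in SN, 3.92 ± 0.10 in TRAIL, 3.92 ± 0.11 in TRAIL+C3/C2 and 3.83 ± 0.10 in TRAIL+SN. On this probe HDAC2 fell by 0.24 on the log2 scale with C3/C2 (adjusted p = 0.00656), with all 4 arrays below the NT range, and by 0.21 with SN (adjusted p = 0.0149). The SN call was lost under spike-in scaling (−0.14, adjusted p = 0.293) and without NT replicate 1 (adjusted p = 0.0689), and the C3/C2 call within slide 2 (−0.22, adjusted p = 0.0555). Spike-in scaling called HDAC2 lower in TRAIL+C3/C2, at −0.75 (adjusted p = 2.88e-06), and in TRAIL+SN, at −0.66 (adjusted p = 1.67e-05). It was not alone: 5 of 20 alternatives called HDAC2 lower in TRAIL+C3/C2 and 7 of 20 in TRAIL+SN. A further HDAC2 probe, at chr6:114257344-114257403, read −2.41 in NT and differed by 0.37 with C3/C2 (adjusted p = 0.00254) and by −0.45 with SN (adjusted p = 0.000391). The probes therefore share the direction in SN and oppose each other in C3/C2, and in TRAIL+C3/C2 the further probe was higher than NT by 0.29 (adjusted p = 0.0124) where the first differed by −0.03 (adjusted p = 0.708). In TRAIL+SN the further probe was at −0.31 (adjusted p = 0.00884) and the first differed by −0.13 (adjusted p = 0.115).

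HDAC8, an X-linked class I enzyme that acts on the SMC3 subunit of cohesin, was measured by 4 probes. On its highest probe, printed above, NT arrays read 0.44, 0.41, 0.61 and 0.57, and C3/C2 arrays 0.13, 0.24, 0.30 and 0.28. The means of the other groups were 0.46 ± 0.13 (SD, n = 4) in SN, 0.68 ± 0.14 in TRAIL, 0.56 ± 0.10 in TRAIL+C3/C2 and 0.70 ± 0.09 in TRAIL+SN. HDAC8 fell by 0.27 on the log2 scale with C3/C2 (adjusted p = 0.00509), with no overlap between the groups, and by 0.25 within slide 2 (adjusted p = 0.0403). With SN the difference was −0.05 (adjusted p = 0.586), and with TRAIL+SN HDAC8 rose by 0.19 (adjusted p = 0.0331), a call lost without any 1 of NT replicates 1 and 2 and TRAIL+SN replicates 3 and 4 (adjusted p from 0.0817 to 0.101). The direction in TRAIL+SN also turned with the scaling, to −0.33 and called lower with spike-in controls (adjusted p = 0.00839), and the difference was −0.00114 by array median and 0.06 with normexp (adjusted p = 0.591). In TRAIL+C3/C2 it turned from 0.06 to −0.29 by array median (adjusted p = 0.0186) and −0.66 with spike-in controls (adjusted p = 1.05e-05). With TRAIL the difference was 0.18 (adjusted p = 0.0877), past the threshold with the replicate block (adjusted p = 0.00301). The probes at chrX:71694436-71694495 and chrX:71792503-71792562 differed from NT by −0.53 (adjusted p = 0.00165) and −0.21 (adjusted p = 0.0289) in C3/C2 and did not pass in the other treatments. The further probe printed above, which joins distant exons, was instead higher in all 4 treatments with acids or supernatant, by 0.34 in C3/C2 (adjusted p = 0.000128), 0.54 in SN (adjusted p = 2.87e-07), 0.56 in TRAIL+C3/C2 (adjusted p = 1.62e-07) and 0.26 in TRAIL+SN (adjusted p = 0.00119). Of the 4 HDAC8 probes, 3 were thus lower and 1 was higher with C3/C2.

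**Figure D2:**
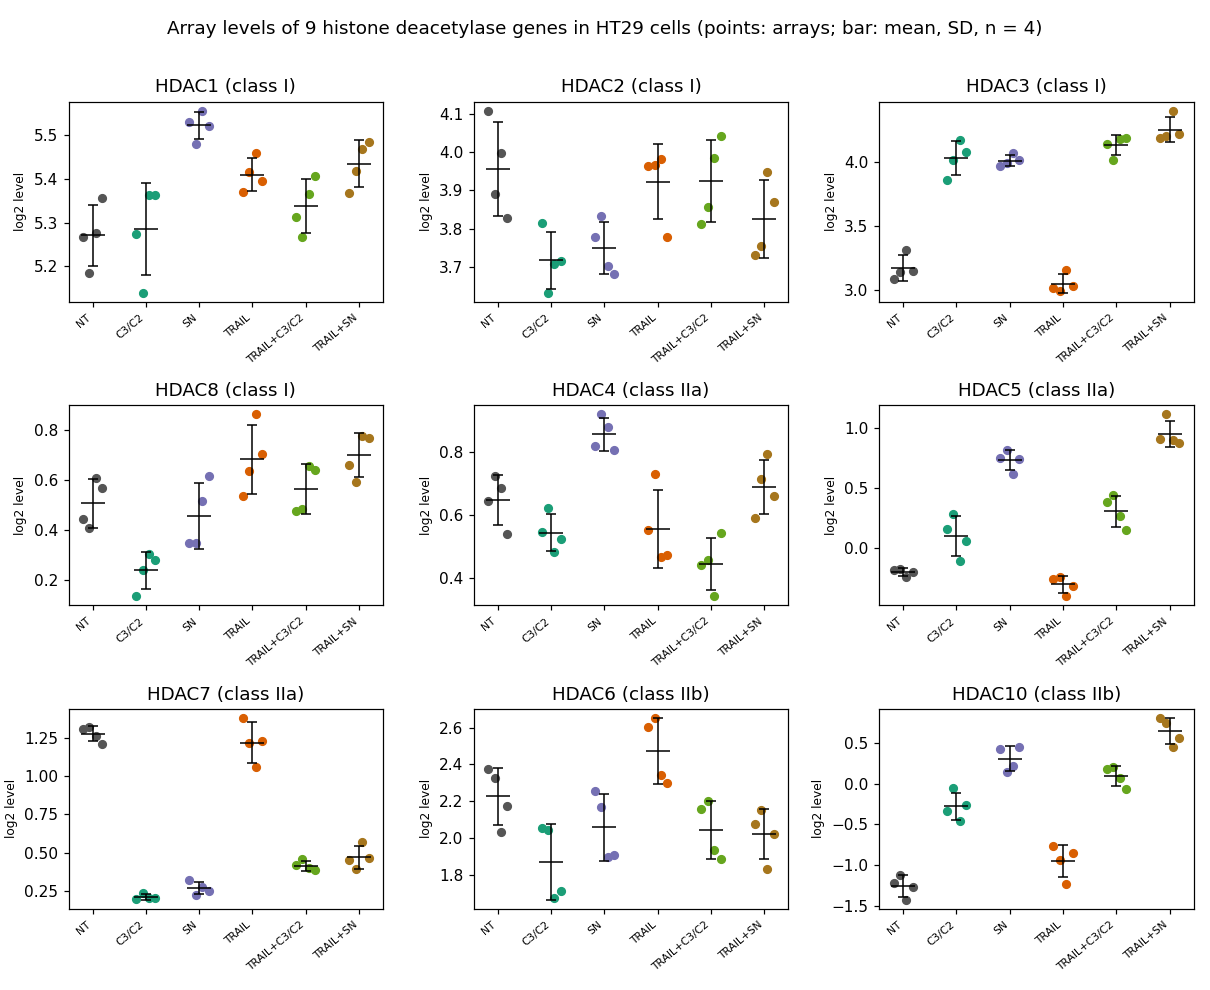
Each panel shows 1 of the 9 HDACs tested, with its log2 level (75th percentile of an array = 0) on the y axis and the 6 groups on the x axis. Points are arrays and bars the mean ± SD (n = 4), and the y axes differ between panels. The HDAC3, HDAC5 and HDAC10 points of the 4 treatments with acids or supernatant sit above all NT points under this scaling, and those of HDAC7 sit below them, while under others HDAC5 was at 0.00 in C3/C2 (array median) and at a difference of −0.21 in TRAIL+C3/C2 (spike-in controls).

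Class IIa held the opposed pair of HDAC5 and HDAC7. HDAC5 (chr17:42154164-42154223) is a MEF2 corepressor that leaves the nucleus on phosphorylation. Its NT arrays read −0.18, −0.18, −0.24 and −0.20, and its TRAIL arrays −0.26, −0.24, −0.40 and −0.31. C3/C2 gave 0.16, 0.29, −0.10 and 0.06, and TRAIL+C3/C2 0.38, 0.44, 0.27 and 0.15. The levels were higher again in SN, at 0.75, 0.81, 0.62 and 0.74, and in TRAIL+SN, at 0.91, 1.11, 0.90 and 0.87. The groups followed each other in the order TRAIL, NT, C3/C2, TRAIL+C3/C2, SN and TRAIL+SN, and the neighbours TRAIL and NT, as well as C3/C2 and TRAIL+C3/C2, overlapped. Neighbours with no overlap reached p = 0.0286 by the exact two-sided permutation test, the smallest it can give, which was 0.143 after Benjamini-Hochberg adjustment over 50 steps between neighbours. HDAC5 rose by 0.30 in C3/C2 (SE 0.08, adjusted p = 0.00215, 1.23-fold), 0.93 in SN (adjusted p = 9.29e-10, 1.90-fold), 0.51 in TRAIL+C3/C2 (adjusted p = 6.68e-06) and 1.15 in TRAIL+SN (adjusted p = 2.81e-11, 2.21-fold). The rise with C3/C2 did not pass within slide 2 (0.28, adjusted p = 0.0705) and was 0.00 when arrays were scaled by their median and 0.12 under spike-in scaling (adjusted p = 0.547). That with TRAIL+C3/C2 was 0.16 by array median (adjusted p = 0.0752) and −0.21 under the spike-in scaling, which also lowered that with TRAIL+SN to 0.62.

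HDAC7, a class IIa enzyme best known from lymphocytes and endothelium, fell in every treatment with acids or supernatant. Its NT arrays read 1.31, 1.32, 1.26 and 1.21 on the probe with the highest level (chr12:48176756-48176815), and its TRAIL arrays 1.38, 1.21, 1.06 and 1.23. In C3/C2 they read 0.20, 0.24, 0.20 and 0.20, and in SN 0.32, 0.23, 0.28 and 0.25. TRAIL+C3/C2 gave 0.42, 0.46, 0.40 and 0.38, and TRAIL+SN 0.45, 0.39, 0.57 and 0.46. The 16 arrays with acids or supernatant, from 0.20 to 0.57, lay below the 8 others, from 1.06 to 1.38. HDAC7 fell by 1.07 on the log2 scale with C3/C2 (SE 0.06, adjusted p = 5.08e-13, 2.10-fold), by 1.01 with SN (adjusted p = 1.01e-12, 2.01-fold), by 0.86 in TRAIL+C3/C2 (adjusted p = 1.31e-11) and by 0.81 in TRAIL+SN (adjusted p = 3.35e-11). The C3/C2 difference was −1.11 on slide 1 and −1.05 on slide 2. Spike-in scaling deepened the falls in the co-treatments, to −1.58 in TRAIL+C3/C2 and −1.33 in TRAIL+SN. A further, dimmer HDAC7 probe (chr12:48177976-48178035) gave −0.83 with C3/C2, −0.51 in SN, −0.42 in TRAIL+C3/C2 and −0.27 in TRAIL+SN, the last of which did not pass (adjusted p = 0.119).

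HDAC4, the remaining class IIa member with a test (chr2:239970676-239970735), parted between the acids and the supernatant. Its mean level was 0.65 ± 0.08 (SD, n = 4) in NT, 0.54 ± 0.06 in C3/C2, 0.86 ± 0.05 in SN, 0.56 ± 0.12 in TRAIL, 0.45 ± 0.08 in TRAIL+C3/C2 and 0.69 ± 0.09 in TRAIL+SN. HDAC4 rose by 0.21 on the log2 scale with SN (adjusted p = 0.00662), with the 4 SN arrays from 0.81 to 0.92 above the NT arrays from 0.54 to 0.72, and fell by 0.20 with TRAIL+C3/C2 (adjusted p = 0.00784). The HDAC4 rise with SN did not pass when the background was corrected by normexp (adjusted p = 0.0982) or when arrays were scaled by their median (0.08, adjusted p = 0.462) or by spike-in controls (0.28, adjusted p = 0.0740). The difference in TRAIL+SN, 0.04 here, was −0.48 with spike-in controls (adjusted p = 0.00224), and that in C3/C2, −0.10, was −0.40 by array median (adjusted p = 0.000635).

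HDAC9 was at the edge of detection. Its probe at chr7:18708002-18708061 was well above background on 0 arrays, with levels from −7.87 to −5.26. The probe at chr7:18801801-18801860 was well above background on 3 arrays, namely TRAIL+C3/C2 replicates 1 and 3, at −2.90 and −3.28, and TRAIL replicate 4, at −5.22. Its NT arrays read −7.64, −7.89, −7.76 and −7.63, and the other TRAIL+C3/C2 arrays −7.13 and −7.10. The replicates of TRAIL+C3/C2 thus disagreed by more than any difference between the groups tested above, and no fold change is given.

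**Figure D3:**
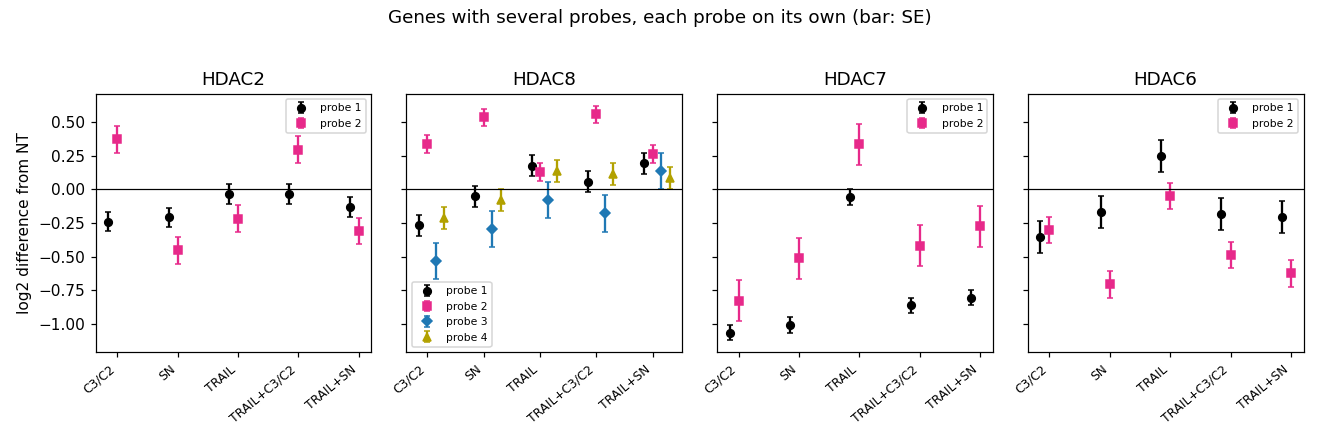
The y axis gives the log2 difference from NT (point) and its SE (bar) for each probe of the 4 members with several probes tested, by treatment on the x axis. Probe 1 is the one with the highest level, and probe 2 of HDAC8 the one that joins distant exons. Both HDAC7 probes lie below 0 in the 4 treatments with acids or supernatant, while HDAC2 and HDAC8 each have 1 probe above 0 and the rest below it in C3/C2.

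HDAC10, of class IIb, rose in all 5 treatments and had the widest range of group means, 1.91 on the log2 scale. Its NT arrays read −1.22, −1.12, −1.43 and −1.27, and its TRAIL arrays −0.77, −0.94, −1.23 and −0.86. C3/C2 gave −0.33, −0.06, −0.46 and −0.26, and SN 0.43, 0.14, 0.22 and 0.45. In TRAIL+C3/C2 the arrays read 0.19, 0.21, 0.08 and −0.06, and in TRAIL+SN 0.81, 0.76, 0.46 and 0.57. All arrays with acids or supernatant were above all NT and TRAIL arrays, and TRAIL replicate 3 lay within the NT range. HDAC10 rose by 0.98 with C3/C2 (SE 0.11, adjusted p = 9.59e-08, 1.98-fold), by 1.57 with SN (adjusted p = 5.23e-11, 2.97-fold), by 1.36 in TRAIL+C3/C2 (adjusted p = 5.2e-10, 2.57-fold) and by 1.91 in TRAIL+SN (adjusted p = 1.9e-12, 3.76-fold). Within slides the C3/C2 difference was 0.88 and 1.01, and spike-in scaling lowered the rise in TRAIL+C3/C2 to 0.65 and that in TRAIL+SN to 1.38. The rise with TRAIL alone was 0.31 (adjusted p = 0.0354). It did not pass without any 1 of NT replicates 3 and 4 and TRAIL replicates 1, 2 and 4 (adjusted p from 0.0659 to 0.115), nor in a fit of these groups only (adjusted p = 0.0721), nor under spike-in scaling, where the difference was 0.04 (adjusted p = 0.897).

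HDAC6, the tubulin deacetylase of class IIb, had the largest SE of the members tested, 0.12. On its probe at chrX:48683060-48683119 the NT arrays read 2.37, 2.33, 2.03 and 2.17, the C3/C2 arrays 2.06, 2.04, 1.67 and 1.72, and the TRAIL arrays 2.60, 2.65, 2.34 and 2.30. The means were 2.06 ± 0.18 (SD, n = 4) in SN, 2.05 ± 0.16 in TRAIL+C3/C2 and 2.02 ± 0.14 in TRAIL+SN. Replicates 1 and 2 averaged above replicates 3 and 4 in 6 of 6 groups, by 0.28 on the log2 scale on average and by 0.19 to 0.36 in single groups. HDAC6 fell by 0.35 with C3/C2 (adjusted p = 0.0122), a call lost without C3/C2 replicate 3 (adjusted p = 0.0504) and within slide 2 (−0.37, adjusted p = 0.0518). The differences with SN, TRAIL and TRAIL+C3/C2 were −0.17, 0.25 and −0.18 (adjusted p = 0.211, 0.115 and 0.178). With the replicate block all 3 passed (adjusted p = 0.00356, 0.000424 and 0.00201), with HDAC6 higher in TRAIL and lower in the others. Over 20 alternatives, other probes aside, the TRAIL difference ranged from −0.03, under spike-in scaling, to 0.35. The HDAC6 difference ranged from −0.89 to −0.13 in TRAIL+C3/C2 and from −0.73 to −0.14 in TRAIL+SN. In each co-treatment, 8 of 20 alternatives called HDAC6 lower where the main fit did not. A further HDAC6 probe (chrX:48664784-48664843) differed by −0.30 in C3/C2 (adjusted p = 0.0111), −0.71 in SN (adjusted p = 1.64e-06), −0.49 in TRAIL+C3/C2 (adjusted p = 0.000151) and −0.63 in TRAIL+SN (adjusted p = 7.88e-06), but by −0.05 in TRAIL (adjusted p = 0.757).

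SN was then compared with C3/C2 to ask whether the supernatant differed from its acids. HDAC5 and HDAC10 were the members with the largest differences, higher in SN by 0.63 (adjusted p = 1.48e-06, 1.55-fold) and 0.59 (adjusted p = 0.000185, 1.50-fold). HDAC4, HDAC1 and HDAC8 were also higher, by 0.31 (adjusted p = 0.000436), 0.24 (adjusted p = 0.00102) and 0.22 (adjusted p = 0.0267). The HDAC8 call was lost without any 1 of C3/C2 replicate 1 and SN replicates 3 and 4 (adjusted p from 0.0693 to 0.103) and with normexp (adjusted p = 0.0630). In all, 5 of 9 members were higher in SN, against 21.7% of all genes tested, and limma called 0 lower, against 25.7%, nor was any lower at an unadjusted p under 0.05 on the probe that stands for the gene. The further HDAC2 probe was lower in SN, at −0.83 (adjusted p = 1.11e-06), with no overlap. For each of these 5 members the 4 SN arrays lay above the 4 C3/C2 arrays, as they did for 20.2% of all genes tested. The difference for HDAC7 was 0.06, with a 95% interval from −0.06 to 0.17, and that for HDAC6 was 0.19, which passed with the replicate block (adjusted p = 0.00272) and was −0.41 on the further HDAC6 probe (adjusted p = 0.00195). These groups lay on different slides, so that slide and treatment cannot be told apart here.

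With TRAIL present, both arms lay on 1 slide. HDAC5 was higher in TRAIL+SN than in TRAIL+C3/C2 by 0.64 (adjusted p = 1.94e-06), HDAC10 by 0.55 (adjusted p = 0.0005) and HDAC4 by 0.24 (adjusted p = 0.00465). These 3 of 9 members compare with 15.9% of all genes tested, and limma called 0 lower, against 21.7%, with 0 lower at an unadjusted p under 0.05. The further HDAC2 probe was here too lower with SN, at −0.60 (adjusted p = 7.27e-05), with no overlap. The replicate block added HDAC3, which was higher by 0.12 (adjusted p = 0.0372), and HDAC8, by 0.14 on its highest probe (adjusted p = 0.0154) against −0.29 on the further probe printed above.

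The other comparison within a slide was SN with TRAIL. It called 8 of 9 members, against 66.4% of all genes tested in either direction. HDAC3, HDAC5, HDAC10 and HDAC4 were higher in SN by 0.96, 1.03, 1.26 and 0.30, and HDAC7, HDAC6, HDAC8 and HDAC2 were lower, with differences of −0.95, −0.42, −0.23 and −0.17. HDAC1 differed by 0.11 (adjusted p = 0.0693), which passed with the replicate block (adjusted p = 0.0185). The SN and TRAIL arrays did not overlap for 7 of 9 members, all but HDAC2 and HDAC8, against 61.9% of all genes tested. The HDAC2 and HDAC8 differences turned to 0.17 and 0.11 under the spike-in scaling, which also took away the HDAC6 call (−0.07, adjusted p = 0.743). The HDAC4 call was lost by array median (0.07, adjusted p = 0.511). The HDAC2 call was also lost with quantile normalization (adjusted p = 0.115) and without any 1 of SN replicates 1, 3 and 4 and TRAIL replicates 1, 2 and 3 (adjusted p from 0.0513 to 0.101), and the HDAC8 call without any 1 of SN replicates 1 and 2 and TRAIL replicate 3 (adjusted p from 0.0525 to 0.0709).

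Departure from the sum of the single treatments was tested as an interaction on the log2 scale. The groups of each interaction were spread over different slides, so that slide and departure cannot be told apart. TRAIL by SN called 4 of 9 members, against 23.2% of all genes. HDAC3, HDAC5 and HDAC7 lay above the sum by 0.36 (adjusted p = 0.0102), 0.32 (adjusted p = 0.0401) and 0.26 (adjusted p = 0.0216), which for HDAC7 means a smaller fall, and HDAC1 lay below it (−0.23, adjusted p = 0.0347). Under the spike-in scaling the values of HDAC3, HDAC5 and HDAC7 were 0.04 (adjusted p = 0.861), −0.000666 and −0.06, and by array median they were 0.20, 0.16 and 0.09 (adjusted p = 0.342, 0.319 and 0.536). The HDAC5 call was lost without any 1 of NT replicates 1, 2 and 4, SN replicates 1, 3 and 4, TRAIL replicates 3 and 4 and TRAIL+SN replicate 2 (adjusted p from 0.0536 to 0.0892), and the HDAC1 call without any 1 of NT replicates 1 and 2, SN replicates 1 and 3, TRAIL replicates 2 and 3 and TRAIL+SN replicates 1 and 2 (adjusted p from 0.0523 to 0.0783). For TRAIL by C3/C2, limma called 0 members, against 2.88% of all genes. Unadjusted p-values under 0.05 were found for 4 members, HDAC2, HDAC3, HDAC5 and HDAC7, and for 3237 of all genes tested. HDAC10 departed by 0.07 and 0.03 in the 2 interactions, with 95% intervals from −0.26 to 0.39 and from −0.29 to 0.36.

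**Figure D4:**
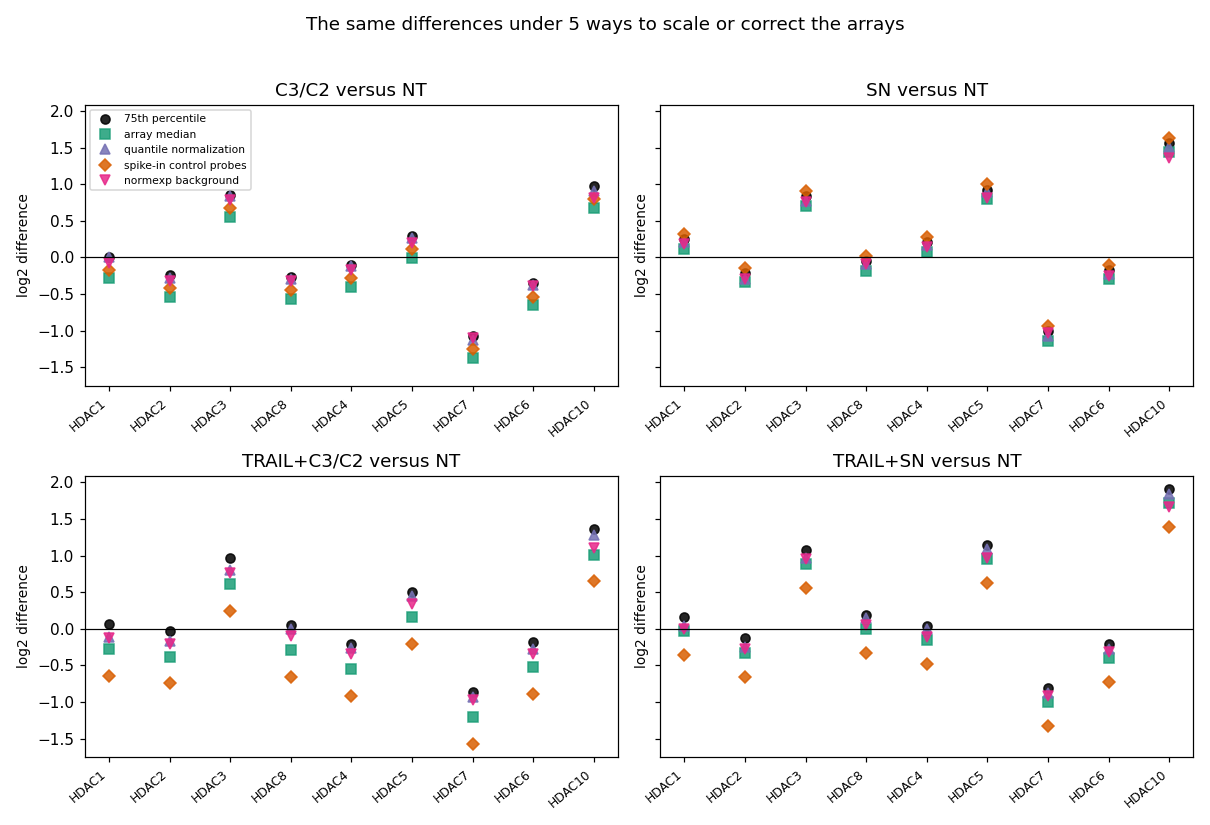
Each panel shows 1 treatment with acids or supernatant, and its y axis gives the log2 difference from NT of the 9 HDACs under the 75th percentile, the array median, quantile normalization, spike-in controls or normexp background. HDAC3 and HDAC10 stay above 0 and HDAC7 below 0 in all 4 panels, while HDAC1, HDAC4, HDAC5 and HDAC8 each cross 0 in at least 1.

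The promoters of HDAC3, HDAC7 and HDAC10 are shown because these members kept their direction under every scaling. The 250 bases before the start site are from RefSeq (GRCh38.p14), which had entries for 9 of the 10 members, and all 3 lie on the minus strand: chr5:141636850-141637099, chr12:47819904-47820153 and chr22:50251266-50251515. Capitals mark matches, on either strand, to GGGCGG (the GC box), CCAAT (the CAAT box), TATAAA (the TATA box) and CACGTG (the E box).
HDAC3: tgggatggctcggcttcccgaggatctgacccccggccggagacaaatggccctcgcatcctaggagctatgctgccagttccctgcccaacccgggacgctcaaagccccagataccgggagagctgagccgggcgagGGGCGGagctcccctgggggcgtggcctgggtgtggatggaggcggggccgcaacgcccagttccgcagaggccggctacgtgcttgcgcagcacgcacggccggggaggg
HDAC7: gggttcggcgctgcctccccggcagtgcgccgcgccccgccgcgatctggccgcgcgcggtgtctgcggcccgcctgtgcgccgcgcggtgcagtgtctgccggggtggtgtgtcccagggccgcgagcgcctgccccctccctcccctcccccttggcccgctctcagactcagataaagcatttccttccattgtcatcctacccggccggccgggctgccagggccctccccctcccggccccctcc
HDAC10: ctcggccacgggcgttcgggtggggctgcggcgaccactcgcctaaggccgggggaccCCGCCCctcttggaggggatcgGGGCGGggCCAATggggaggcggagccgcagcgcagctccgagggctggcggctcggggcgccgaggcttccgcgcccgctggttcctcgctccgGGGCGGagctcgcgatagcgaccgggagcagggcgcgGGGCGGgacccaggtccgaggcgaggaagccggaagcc

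In these windows HDAC3 has 1 GC box, HDAC10 has 4 with 1 CCAAT, and HDAC7 matches none of the 4 motifs. Over all 35116 promoters of the same length in the reference, 42.64% hold GGGCGG, 32.01% hold CCAAT, 10.72% hold TATAAA and 6.345% hold CACGTG. The GC content of the windows is 70.8% for HDAC3, 75.6% for HDAC7 and 78% for HDAC10. A match describes the letters and not a bound site.

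The genes around these enzymes were followed through lists. Of 32 partners of class I enzymes in the CoREST, NuRD, SIN3 and NCoR complexes, those called numbered 15 higher and 8 lower in C3/C2, 16 and 6 in SN, 15 and 2 in TRAIL, 17 and 5 in TRAIL+C3/C2, and 15 and 8 in TRAIL+SN. Over all genes tested, the shares higher and lower were 35.2% and 27.7% in C3/C2, 35.1% and 34.2% in SN, 20.3% and 13.1% in TRAIL, 39.9% and 29.5% in TRAIL+C3/C2, and 37.4% and 32.7% in TRAIL+SN, the background for each list. The partners' median log2 difference in C3/C2 was 0.16, beside 0.08 over all genes tested. Array median scaling moved the all-gene median to −0.22, and the partners' median was not computed under that scaling. RCOR2, a CoREST scaffold, rose by 2.64 with C3/C2 and 2.76 with SN, with a difference of 0.00 in TRAIL. MTA3, a NuRD subunit, fell by 1.02 in C3/C2 and fell by 1.37 in SN. C14orf43, now named MIDEAS, which belongs to an HDAC1 and HDAC2 complex, rose by 0.45 with C3/C2, 1.04 with SN and 2.02 with TRAIL+SN.

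Of 28 class IIa regulators and MEF2 partners, 26 were tested. In C3/C2 13 were higher and 8 lower, in SN 15 and 7, in TRAIL 6 and 6, in TRAIL+C3/C2 13 and 5, and in TRAIL+SN 15 and 5. The medians were 0.36 with C3/C2 and 0.58 with SN, beside 0.08 and −0.02 over all genes. BCL6, a repressor that recruits class IIa enzymes, rose by 2.23 with C3/C2 and 1.42 with SN, and MEF2B, a MEF2 factor, by 1.82 and 1.83. MEF2C, of the same family, was well above background on 0 NT arrays and was at least 3.31-fold higher in C3/C2 and at least 4.76-fold higher in SN.

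**Figure D5:**
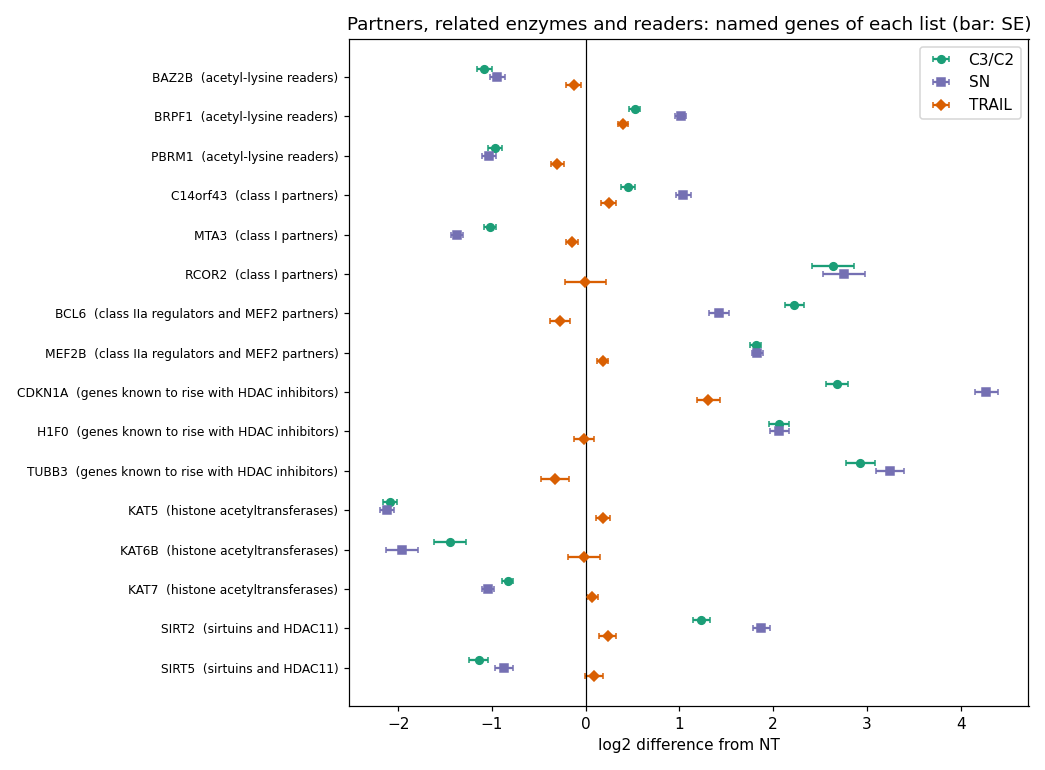
The x axis gives the log2 difference from NT in C3/C2, SN and TRAIL for the named genes of each list, with bars for the SE. MEF2C and SIRT4 are left out because NT gives only a bound for them. The C3/C2 and SN points of a gene lie on the same side of 0, at 2.64 and 2.76 for RCOR2 and −2.09 and −2.12 for KAT5, and the TRAIL points lie nearer to 0.

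Enzymes with the opposite activity formed the next list. Of 14 histone acetyltransferases, 8 were lower and 4 higher in C3/C2, again 8 and 4 in SN, 2 and 3 in TRAIL, 8 and 3 in TRAIL+C3/C2, and 7 and 3 in TRAIL+SN. Lower were thus 8 of 14 where 27.7% of all genes tested were lower in C3/C2 and 34.2% in SN. Their median was −0.27 in C3/C2 and −0.30 in SN, beside 0.08 and −0.02 over all genes. Array median scaling moved the all-gene median in C3/C2 to −0.22. It shifts every gene of an array alike, and the list median was not computed under it. KAT5 (TIP60) fell by 2.09 in C3/C2 and fell by 2.12 in SN, while KAT6B fell by 1.45 and fell by 1.96, and KAT7 fell by 0.83 and fell by 1.04. Of 16 readers of acetyl-lysine, 8 were lower and 5 higher in C3/C2 (median −0.15), 9 and 4 in SN, 2 and 6 in TRAIL, 6 and 6 in TRAIL+C3/C2, and 7 and 3 in TRAIL+SN. In C3/C2, the bromodomain proteins BAZ2B and PBRM1 were at −1.08 and −0.97, and BRPF1, a scaffold of acetyltransferase complexes, at 0.52.

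The deacetylases outside classes I and II were the sirtuins, which use NAD+, and HDAC11, the class IV enzyme. Of these 8 genes, 5 were higher and 2 lower in C3/C2, 5 and 1 in SN, 3 and 1 in TRAIL, 4 and 2 in TRAIL+C3/C2, and 4 and 3 in TRAIL+SN, where 35.2% of all genes tested were higher and 27.7% lower in C3/C2. SIRT2, which also acts on tubulin, rose by 1.23 with C3/C2 and 1.87 with SN. The mitochondrial sirtuins parted: SIRT4, well above background on 1 of 4 NT arrays, was at least 15.1-fold higher in C3/C2 and at least 10.1-fold higher in SN, and SIRT5 fell by 1.14 and fell by 0.88. On its highest probe, HDAC11 rose by 0.36 with SN (adjusted p = 0.00297) and differed by 0.15 with C3/C2 (adjusted p = 0.194). The HDAC11 probe at chr3:13522834-13522893 was higher by 0.40 in C3/C2 (adjusted p = 0.00700) and by 0.84 in TRAIL+C3/C2 (adjusted p = 2.89e-06). The one at chr3:13543373-13543432 differed by 0.005 in C3/C2 (adjusted p = 0.973).

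The last list held genes known from textbooks to rise when HDACs are inhibited. Of 7 such genes 6 were tested, of which limma called 5 higher and 0 lower in both C3/C2 and SN, 2 and 0 in TRAIL, and 6 and 0 in each co-treatment. Their median was 1.73 with C3/C2, beside 0.08 over all genes. CDKN1A, the cell cycle inhibitor p21, rose by 2.68 with C3/C2 (6.40-fold), 4.27 with SN (19.4-fold) and 1.31 with TRAIL. H1F0, the linker histone H1.0, rose by 2.06 with C3/C2 and 2.07 with SN and was at −0.02 in TRAIL, and TUBB3, a neuronal tubulin, rose by 2.93 and 3.25 and was at −0.33 in TRAIL.

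In each class, the genes with the pattern most like that of the member with the widest range are given as a description over the 24 arrays, which share groups and slides, out of 12398 genes well above background on all of them. For HDAC3 they were IFFO2 (Pearson r = 0.987), PLEKHH3 (0.987) and ATG4B (0.986). For HDAC5 they were FEM1C, RNF183 and FUT1, each with r = 0.974. For HDAC10 they were NPIP (0.990), LCAT (0.987) and GOLGA6L10 (0.986), of which NPIP and GOLGA6L10 belong to families with near-identical copies, so that the probe may read several genes.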

How the data were processed

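RNA of HT29 cells in 6 groups of 4 samples was labelled by the authors with Cy3 and hybridised to 1-colour Agilent arrays. These were read with Agilent Feature Extraction 10.7.3.1. Per the file headers, the deposited intensity is detrended, has the background of negative controls subtracted, and carries no normalization across arrays. In a table the authors also deposited, each intensity is divided by its array's median (checked on the values). It was used as an alternative, as were the raw mean and local background intensities. Their own analysis in Rosetta Resolver was not repeated here. Flags of that deposited table were not used.

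Control and outlier spots were left out, spots of a probe averaged, and the 75th percentile of each array subtracted from the log2 intensities, which are log2 values computed here from the deposited intensities. A probe was kept (27953 were) if at least 1 group had it well above background on all of its 4 arrays, and the probe with the highest mean stood for a gene. A lower bound is the bright group's mean against, on each NT array, the higher of the lowest level well above background and the probe's own level. limma 3.58.1 (R 4.3.3, statmod 1.5.0, data.table version 1.17.8) fitted 6 group means over 24 arrays, with 18 residual degrees of freedom, after tests on simulated data. Neighbouring group means were set against each other by exact two-sided permutation tests, whose smallest p for 4 against 4 arrays is 0.0286. Every array gave 49.8% to 57.8% of probes well above background. The number of arrays limits the precision, and the median SE of a log2 difference from NT was 0.11. Figures were drawn with matplotlib 3.10.9 (Python 3.11.15).

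All members and their probes, and HDAC11, are named. From each list, at most 3 genes were named, those with the largest absolute log2 change in any treatment among genes called at 2-fold. Members and lists were chosen with earlier results of these data known. Deviations of arrays with the same replicate number correlated at 0.11 or more in every pair of groups compared directly, except TRAIL+SN with NT (lowest 0.09), so the numbers were taken as pairing the arrays, from the data and not from the labels, and blocked values stand beside results whose call they change. The first component of the deviations (21.9% of the variance) put all 12 arrays numbered 1 and 2 on one side and all 12 numbered 3 and 4 on the other. Alternatives covered scaling, background, filter, probe, samples and blocks.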

Additional observations from a re-analysis of the deposited data

Results flagged for a closer look

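In 11 of 102 groups of 4 arrays of a probe, 1 array lay far from the others (by Dixon's test of the gap to the nearest array), where chance gives about 1 in 20. For HDAC2, TRAIL replicate 4 read 3.78 beside 3.96 to 3.98. For HDAC3, TRAIL+SN replicate 3 read 4.40 beside 4.19 to 4.22, and for HDAC5, TRAIL+SN replicate 2 read 1.11 beside 0.87 to 0.91. For HDAC7, C3/C2 replicate 2 read 0.24 where the others all rounded to 0.20, so the gap is small in size. On the HDAC8 probe that joins distant exons, NT replicate 2 read −1.58 beside −1.36 to −1.32, and SN replicate 4 read −0.77 beside −0.90 to −0.89. On the HDAC8 probe at chrX:71792503-71792562, SN replicate 4 read 0.0941 beside −0.17 to −0.13, and TRAIL+SN replicate 3 read 0.22 beside 0.02 to 0.04. The 3 others were HDAC9 values near background: NT replicate 2 at −6.32 and SN replicate 4 at −5.26 on one probe, and SN replicate 3 at −6.06 on the other.

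In the main fit, the effect of SN differed with and without TRAIL, by the interaction test, for HDAC1 (−0.23), HDAC3 (0.36), HDAC5 (0.32) and HDAC7 (0.26), on the log2 scale. Of 28 alternatives, 10 lost the HDAC1 call, 3 that of HDAC3, 14 that of HDAC5 and 6 that of HDAC7. For HDAC5 and HDAC7, 1 alternative each turned the sign. Slide and departure cannot be told apart in this test. The HDAC9 probe left out of the tests gave a signal marked as well above background on TRAIL replicate 4 (−5.22) and on TRAIL+C3/C2 replicates 1 (−2.90) and 3 (−3.28), with no NT array so marked.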

How the results depend on the processing

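No alternative run took away or turned the calls of HDAC3, HDAC7 and HDAC10 against NT in C3/C2, SN and either co-treatment, other than the further HDAC7 probe in TRAIL+SN (adjusted p = 0.119), and the same held for HDAC5 in SN and TRAIL+SN. Array median scaling, which has the values of the authors' table, moved the median log2 difference of all genes to −0.22 in C3/C2 and −0.25 in TRAIL+C3/C2, and spike-in scaling, which rests on 7 control probes, moved it to −0.61 in TRAIL+C3/C2 and −0.49 in TRAIL+SN. Of 100 differences, scaling by the array median turned 7 and spike-in scaling 11. The replicate block could turn none, because each group has 1 array of every number, which leaves the estimates unchanged. The random slide block, with a correlation of 0.03 within slides, turned 0. Causes were not tested beyond the construction of each alternative.

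Counts of members called moved as follows. Array median scaling and the authors' table gave 4 in TRAIL against NT, 8 in TRAIL+C3/C2, 7 between TRAIL+SN and TRAIL+C3/C2, 2 in the TRAIL by SN interaction and, at 2-fold, 2 in TRAIL+C3/C2. Quantile normalization gave 2 in TRAIL, 8 in TRAIL+C3/C2 and 1 in the TRAIL by C3/C2 interaction. Spike-in scaling gave 3 in TRAIL, 8 in TRAIL+C3/C2, 6 between the co-treatments, 1 in the TRAIL by SN interaction and 1 at 2-fold in SN. The normexp background gave 2 in the TRAIL by SN interaction and 1 at 2-fold in TRAIL+SN, and no filter gave 1 and, at 2-fold in TRAIL+C3/C2, 2. The filter on all 24 arrays gave 2 in TRAIL, and a fit of the groups compared gave 0 there (limma; in the fit of all arrays 4 members had an unadjusted p under 0.05). Within slide 2, 4 were called in C3/C2 and 2 at 2-fold. The mean of all probes gave 0 at 2-fold in C3/C2 and 1 in SN. The random slide block gave 2 in the TRAIL by SN interaction.

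With the replicate number as a block, 5 members were called in TRAIL, 5 between the co-treatments and 3 in the TRAIL by C3/C2 interaction (HDAC3, HDAC5 and HDAC7, adjusted p = 0.0465, 0.0167 and 0.0473). In TRAIL+SN against NT, the block called HDAC6 as well (adjusted p = 0.000705). The lowest correlation between arrays of the same number was 0.09 there. The block also called HDAC6 in the TRAIL by SN interaction (adjusted p = 0.0036). It took away no call. Replicates 1 and 2 against 3 and 4 as a block, chosen after seeing the data, gave 4 in TRAIL and 2 in the TRAIL by C3/C2 interaction. Leaving out single replicates gave 0 to 1 in TRAIL, 2 to 4 and 0 to 1 in the TRAIL by SN and TRAIL by C3/C2 interactions, and, at 2-fold, 1 to 2 each in C3/C2, SN and TRAIL+C3/C2.

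Differences that turned sign, on the log2 scale, were these. Under array median scaling and the authors' table, HDAC1 was −0.287 in C3/C2, −0.281 in TRAIL+C3/C2 and −0.0305 in TRAIL+SN, HDAC5 −0.00163 in C3/C2, HDAC8 −0.290 in TRAIL+C3/C2 and −0.00114 in TRAIL+SN, and HDAC11 −0.235 in TRAIL+C3/C2. Under quantile normalization HDAC1 was −0.108 in TRAIL+C3/C2, and with normexp −0.00176 in TRAIL+SN. Under spike-in scaling, TRAIL+C3/C2 gave −0.647 for HDAC1, −0.601 for HDAC11, −0.207 for HDAC5 and −0.656 for HDAC8, TRAIL+SN gave −0.362 for HDAC1, −0.484 for HDAC4 and −0.333 for HDAC8, SN against TRAIL gave 0.168 for HDAC2 and 0.114 for HDAC8, and TRAIL by SN gave −0.000666 for HDAC5 and −0.0635 for HDAC7. The mean of all probes gave 0.0675 for HDAC2 in C3/C2, −0.398 for HDAC2 in SN against C3/C2 and 0.202 for HDAC11 in TRAIL+SN. The HDAC8 probe that joins distant exons gave 0.337 in C3/C2, 0.537 in SN, −0.294 between the co-treatments, 0.408 in SN against TRAIL and −0.401 in TRAIL by SN. The further HDAC2 probe gave 0.374 in C3/C2, 0.295 in TRAIL+C3/C2 and −0.828 in SN against C3/C2, the further HDAC7 probe −0.0967 in TRAIL by SN, the further HDAC6 probe −0.407 in SN against C3/C2, and another HDAC11 probe 0.446 in TRAIL+SN.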
